A study of Rattus norvegicus with 6 samples.

Results

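Hepatic stellate cells and the matrix genes that they and their neighbours express were followed through 38 genes in rat liver, out of 14217 genes with a probe set of their own on the array. The genes were chosen by name, with earlier results of these data known. They were taken as markers of stellate cells and fibroblasts or as components and processors of the extracellular matrix. Each was read from its brightest probe set over the arrays. All 38 had a probe set, and 33 of them lay above a low-value filter at a mean of 2.82 on the log2 scale, as did 10449 genes in all.

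Livers came from male Sprague Dawley rats of 210 to 230 g, with 8 animals in all. Tienilic acid (TA) is a uricosuric diuretic that was withdrawn because of hepatitis. It was given by gavage at 100 mg/kg in an equimolar amount of sodium bicarbonate, and vehicle rats received sodium bicarbonate alone. The groups were vehicle at 6 h after 1 dose, TA at 6 h after 1 dose, vehicle at 24 h after doses at 0 and 16 h, and TA at 24 h after doses at the same hours. Each vehicle group is 1 array of RNA pooled from 2 rats, and each TA group is 2 arrays of 1 animal each, so that the 6 Affymetrix arrays carry no replicate of vehicle. The vehicle arrays are called the 6 h pool and the 24 h pool here, and animals 1 and 2 are different rats at each time. RNA came from liver tissue, in which fewer stellate cells and less RNA per cell cannot be told apart.

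Stellate cells lie between the hepatocytes and the sinusoidal endothelium. In healthy liver they store vitamin A as retinyl esters, and on injury they can turn into contractile myofibroblasts that secrete fibrillar collagen. The matrix they lay down is built by collagens, bound by small proteoglycans, crosslinked by lysyl oxidases, and turned over by metalloproteinases that the TIMP proteins inhibit. TGF-beta and PDGF are the classic signals of this activation.

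Of the 6 stellate cell and pericyte markers among the members, 3 passed the low-value filter and 3 did not. Lrat, which makes retinyl esters, lay between 9.01 and 9.96 on the 6 arrays, the secreted glycoprotein Reln between 9.09 and 10.63, and the collectin Colec11 between 10.96 and 11.43. The filament protein desmin (Des), the pericyte regulator Rgs5, the fibroblast surface protein Thy1, the matricellular protein Postn and the cytokine Tgfb1 did not pass the filter. Their probe sets lay between 2.31 and 2.83, in the floor of these values, and no difference from vehicle among them exceeded 0.08. Des read 2.75, 2.83 and 2.67 in the 6 h pool and the TA animals of 6 h, and 2.66, 2.65 and 2.65 in the 24 h pool and the TA animals of 24 h. Tgfb1 read 2.38, 2.35 and 2.39, then 2.38, 2.37 and 2.37, in the same order. Such readings in the floor cannot show whether Des or Tgfb1 was expressed or differed between groups. Acta2, the smooth muscle actin of myofibroblasts, stood just above the floor, at 3.15 in the 6 h pool, 3.27 and 3.31 in TA at 6 h, 3.59 in the 24 h pool and 3.40 and 3.34 in TA at 24 h. Of the further stellate cell genes read, Gfap, Ngfr, Nes, Hhip and Hgf did not pass the filter either. Col1a2, Col3a1, Vim, Tagln and Timp1, which activated cells also express, were well above it. These are RNA levels on 1 probe set each and say nothing of the protein.

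Promoter windows of the members were read from RefSeq (GRCr8), as the 250 bases before the annotated start. The table held 25 of the 38 members, and Col1a1, Col3a1, Col14a1, Col6a2, Dcn, Bgn, Lox, Loxl2, Mmp2, Mmp14, Thy1, Tagln and Pdgfrb were not matched. Sparc, Col6a3 and Fbn1 are shown because both TA animals of 24 h lay at least 0.5 below vehicle on their brightest probe sets. Capitals mark CAGAC, the core of the Smad element through which TGF-beta signals, or its complement GTCTG. For Col1a2 the upstream 100 bases of the window are shown, with capitals for CCAAT (here as ATTGG on the printed strand) and TATAAA only, because it is the type I collagen gene of the set with both boxes.
Sparc, chr10:40038817-40039066, minus strand: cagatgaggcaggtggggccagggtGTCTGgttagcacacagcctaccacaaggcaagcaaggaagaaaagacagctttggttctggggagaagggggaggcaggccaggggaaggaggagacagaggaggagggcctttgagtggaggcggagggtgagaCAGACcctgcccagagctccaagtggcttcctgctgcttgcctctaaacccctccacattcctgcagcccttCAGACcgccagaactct
Col6a3, chr9:98886959-98887208, minus strand: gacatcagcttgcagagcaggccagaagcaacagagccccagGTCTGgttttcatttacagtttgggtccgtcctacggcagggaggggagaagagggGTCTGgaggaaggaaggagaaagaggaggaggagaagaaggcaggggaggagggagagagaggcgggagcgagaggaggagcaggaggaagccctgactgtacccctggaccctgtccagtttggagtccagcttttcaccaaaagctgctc
Fbn1, chr3:133203391-133203640, minus strand: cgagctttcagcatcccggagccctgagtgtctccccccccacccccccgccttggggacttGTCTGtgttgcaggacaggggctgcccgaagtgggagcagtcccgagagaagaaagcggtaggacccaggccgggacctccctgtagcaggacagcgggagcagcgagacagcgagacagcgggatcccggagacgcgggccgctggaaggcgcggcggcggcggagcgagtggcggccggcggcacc
Col1a2, chr4:33518307-33518406, plus strand: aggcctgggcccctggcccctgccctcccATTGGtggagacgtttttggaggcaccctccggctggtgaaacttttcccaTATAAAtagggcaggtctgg

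Searched on both strands, CAGAC was in 13 of the 25 member windows (52%) and in 42.9% of all 33469 windows of that length. GGGCGG, the core of the GC box, was in 12 (48%) and in 30.5% of all windows. CCAAT was in 8 (32%, against 34% of all), TATAAA in 4 (16%, against 12.9%) and TGANTCA, the AP-1 core, in 3 (12%, against 6.3%). The CArG box of smooth muscle genes was in 0 of the 25 windows and in 1.5% of all. Each motif was counted without regard to overlap with another. These matches are letters in a window and not sites shown to be bound.

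At 24 h, most of the matrix genes lay below vehicle in both treated animals. Of the 33 members above the filter, 23 were lower in both animals, where 34.5% of all genes were. Lox alone (1 of 33) was higher in both, as were 28.1% of all genes. The median log2 difference of the members was -0.40, with -0.60 in animal 1 and -0.26 in animal 2, beside -0.01 over all genes. By size, on brightest probe sets, 5 members lay at least 0.5 below vehicle in both animals (Col14a1, Col6a3, Sparc, Fbn1 and Loxl2), where 1.92% of all genes did. Lox lay at least 0.5 above in both, as 1.33% of all genes did. Both animals were set against the same pool and are not independent in this.

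No member passed the test at 24 h. In limma's moderated test, adjusted by Benjamini-Hochberg over 18625 probe sets, 0 of the 33 were called, beside 0% of all genes and 1 probe set without a gene symbol (0.00537% of probe sets), and the smallest adjusted p of a member was 0.904. Unadjusted, Col14a1, Sparc, Lox and Loxl2 had p under 0.05, 4 of 33, where 5.16% of all genes did. The median standard error of a member's difference was 0.37 and that of all probe sets 0.15, with 2 residual degrees of freedom from the treated pairs. The values below are therefore differences between arrays and not called changes.

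**Figure D1:**
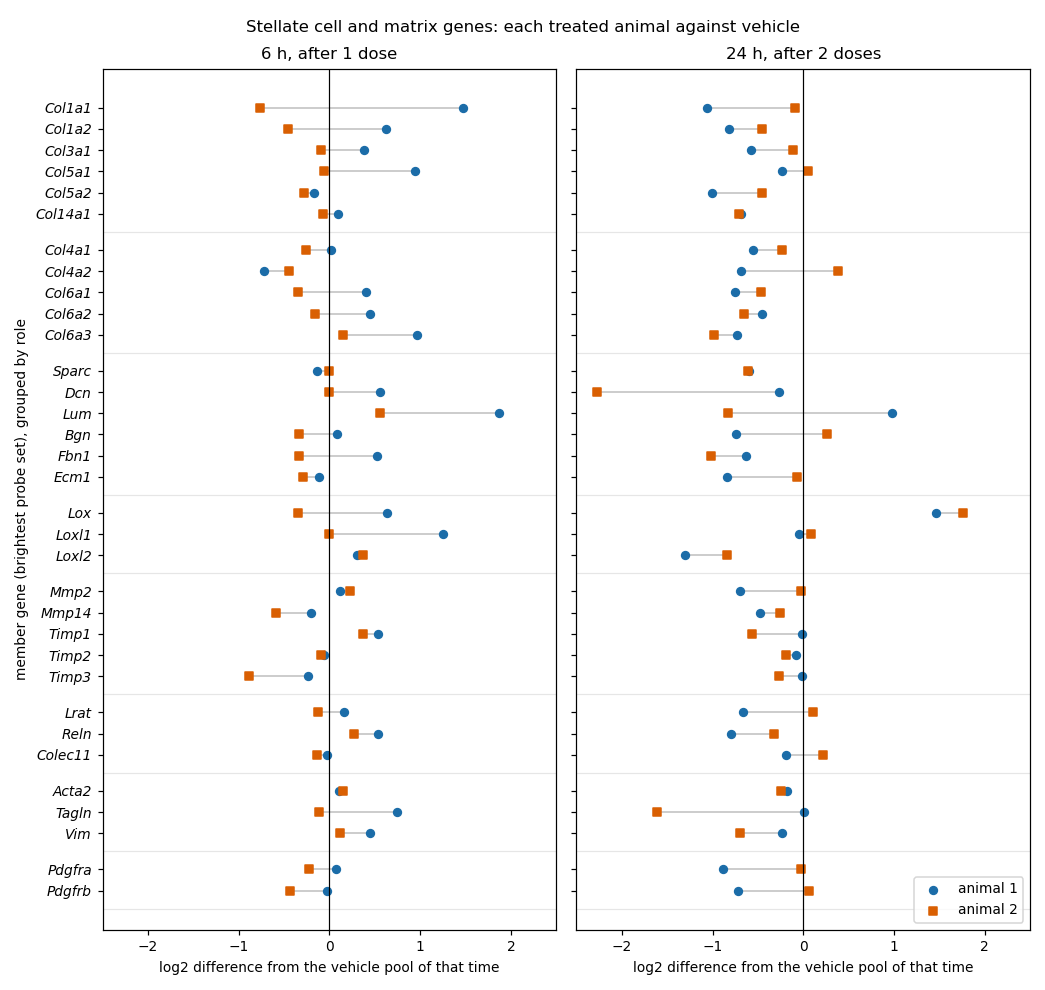
Log2 difference of each treated animal from the vehicle pool of its time, for the 33 members above the filter, at 6 h (left) and 24 h (right); circles are animal 1, squares animal 2, and grey lines join the animals of a gene. At 24 h 23 genes have both animals left of 0 and Lox alone has both to the right, while at 6 h the circle of animal 1 lies right of the square for 28 genes.

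The fibrillar collagens carry the tensile strength of the matrix. They were read together with Col14a1, which is fibril-associated and not itself fibrillar. Of these 6 members, 5 were lower in both animals at 24 h, with differences from -0.73 to -0.10. Col1a2, a chain of type I collagen, was at 9.71 in the 24 h pool and at 8.88 and 9.25 in the TA animals. In the 6 h groups it was at 10.42 in the 6 h pool and at 11.05 and 9.96 in the TA animals, so that both TA arrays of 24 h were the lowest of the 6. Its difference at 24 h was -0.64 ± 0.53 (SE, n = 2 TA animals), which is 64.1% of the vehicle level.

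Col1a1, the other type I chain, stood nearer the floor. It was at 4.57 in the 24 h pool and at 3.51 and 4.48 in the animals, after 5.13 in the 6 h pool and 6.60 and 4.37 in the animals of 6 h. On this probe set animal 1 lay at -1.06 and animal 2 at -0.09 from the pool, and the difference of -0.57 ± 1.11 was within the spread between animals. A dimmer probe set of Col1a1 had the animals the other way round, at 0.02 and -0.98. Col3a1, the type III chain that runs with type I in reticular fibres, was at 12.34 in the 24 h pool and at 11.76 and 12.23 in the animals, after 12.79, 13.17 and 12.70 in the 6 h pool and the animals of 6 h.

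On brightest probe sets, Col14a1, a collagen that sits on the surface of type I fibrils, gave the closest pair of animals at 24 h among the collagens in or on fibrils. It was at 10.47 in the 6 h pool, 10.57 and 10.40 in TA at 6 h, 10.41 in the 24 h pool, and 9.72 and 9.70 in TA at 24 h. The 4 other arrays lay between 10.40 and 10.57, and both TA arrays of 24 h lay below all of them, at 61.7% of the vehicle level (-0.70 ± 0.12, limma adjusted p = 0.904). A dimmer probe set of Col14a1 had the animals further apart, at -0.46 and -0.94 from the 24 h pool. Col5a2, a minor fibril chain, had -0.73 ± 0.27 and its partner Col5a1 -0.10 ± 0.49.

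Collagens of the basement membrane and of beaded filaments were lower in both animals for 4 of 5 members. Col6a3, the largest chain of the type VI filament, was at 7.12, 8.10 and 7.27 in the 6 h pool and the animals of 6 h, and at 7.08, 6.35 and 6.10 in those of 24 h. Its difference at 24 h was -0.85 ± 0.40, or 55.3% of vehicle, and the TA animals of the 2 times did not overlap. The other type VI chains had -0.61 ± 0.38 (Col6a1) and -0.56 ± 0.31 (Col6a2). Col4a1, of the type IV network, had -0.40 ± 0.22, whereas its partner Col4a2 lay on either side of vehicle, at -0.69 and 0.38.

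Among matrix glycoproteins and proteoglycans, 4 of the 6 above the filter were lower in both animals. Sparc, a collagen-binding glycoprotein, was at 10.68 in the 6 h pool, 10.54 and 10.67 in TA at 6 h, 10.83 in the 24 h pool, and 10.23 and 10.22 in TA at 24 h. Both TA arrays of 24 h lay below all others, at 65.6% of vehicle (-0.61 ± 0.11, limma adjusted p = 0.904). On a dimmer probe set of Sparc the 6 h pool was lowest, at 6.48, and the TA animals of 24 h were at 7.22 and 6.83. Fbn1, which forms the microfibrils of elastic tissue, was at 6.25, 6.78 and 5.93 in the 6 h pool and the animals of 6 h and at 5.52, 4.90 and 4.51 in those of 24 h, a difference of -0.82 ± 0.44 at 24 h.

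The small proteoglycans split the animals. Decorin (Dcn), which coats collagen fibrils, was at 7.14 in the 24 h pool, at 6.87 in animal 1 and at 4.88 in animal 2, after 7.15, 7.71 and 7.15 on the 6 h arrays. Only animal 2 stood apart, and the difference of -1.27 ± 0.95 rests on it. Lumican (Lum) was at 3.32 in the 24 h pool, 4.30 in animal 1 and 2.49 in animal 2, and at 2.66, 4.53 and 3.22 on the 6 h arrays. It crossed the floor of the values between arrays and had no common direction at 24 h. Biglycan (Bgn) had -0.74 in animal 1 and 0.26 in animal 2.

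Lysyl oxidases, which crosslink collagen and elastin, went in opposite directions. Lox was at 6.91 in the 24 h pool and at 8.37 and 8.67 in the TA animals, the highest 2 of the 6 arrays. On the 6 h arrays it was at 7.46 in the 6 h pool and at 8.09 and 7.12 in the animals. Its difference of 1.61 ± 0.47 at 24 h put it at 306% of the vehicle level (limma, unadjusted p = 0.0321, adjusted p = 0.909). Loxl2, a paralogue that also acts in basement membranes, was at 5.74 in the 24 h pool and at 4.45 and 4.90 in the animals, the lowest 2 arrays, whereas the 6 h pool was at 6.63 and the TA animals of 6 h lay 0.30 and 0.37 above it. Its difference was -1.07 ± 0.23, or 47.6% of vehicle (adjusted p = 0.904). Loxl1 was at 3.25 in the 24 h pool and 3.20 and 3.33 in the animals.

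**Figure D2:**
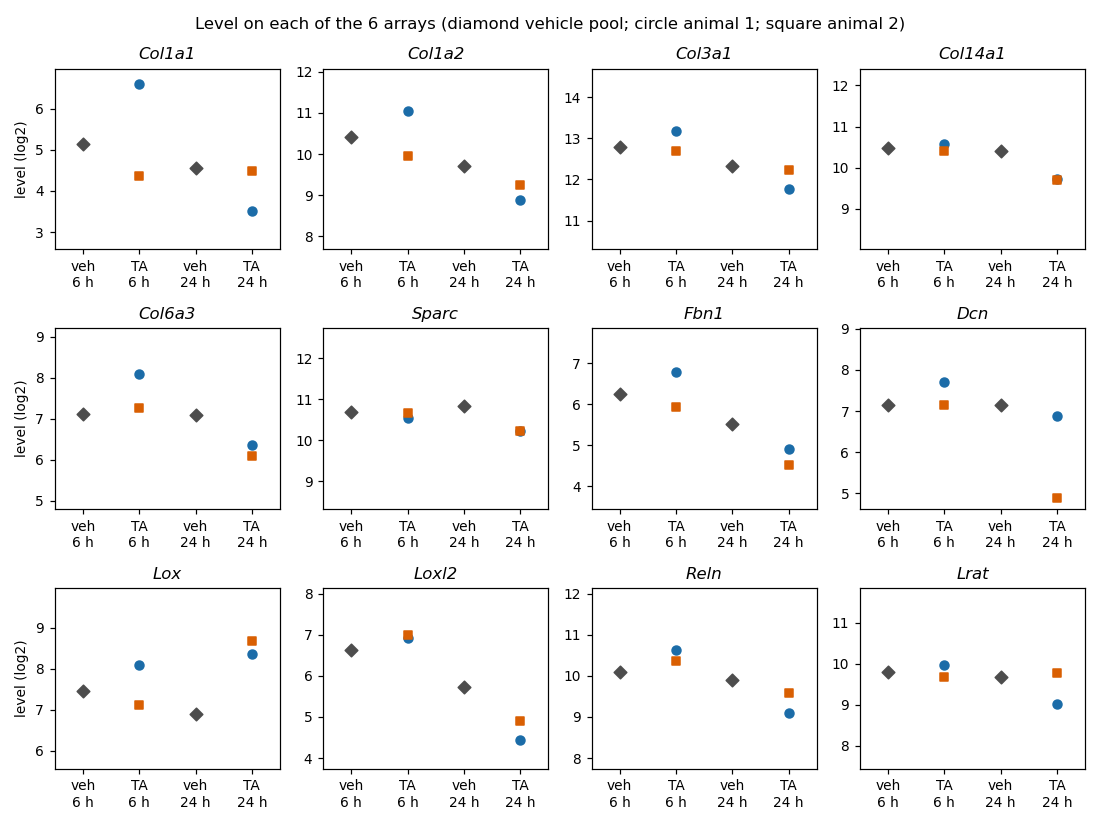
Level (log2) of 12 members on the 6 arrays, each on its brightest probe set, with a span of 4.4 log2 units in every panel. Diamonds are vehicle pools of 2 rats, circles TA animal 1 and squares TA animal 2 of each time, which are different rats at the 2 times. Col14a1 and Sparc show both TA arrays of 24 h together and below all others, Lox shows them above all others, and Dcn shows animal 2 of 24 h alone at 4.88.

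All 5 proteases and inhibitors were lower in both animals at 24 h, with differences from -0.37 to -0.13 and a median of -0.29, but 3 had 1 animal close to vehicle (Mmp2 at -0.03, Timp1 at -0.01 and Timp3 at -0.01). Mmp14, a membrane-bound collagenase that activates Mmp2, had -0.37 ± 0.23, and Mmp2, the gelatinase of mesenchymal cells, -0.36 ± 0.33. Timp1, an inhibitor known to be induced in injured liver, was at 6.78 in the 24 h pool and at 6.77 and 6.21 in the animals, with 6.61, 7.15 and 6.98 on the 6 h arrays. Timp2 and Timp3 had -0.13 ± 0.11 and -0.14 ± 0.33.

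The stellate cell markers lay lower in animal 1 of 24 h than in animal 2. Lrat was at 9.67 in the 24 h pool, 9.01 in animal 1 and 9.78 in animal 2, after 9.80, 9.96 and 9.67 on the 6 h arrays. Reln was at 9.90 in the 24 h pool and at 9.09 and 9.58 in the animals, after 10.09, 10.63 and 10.36 at 6 h, a difference of -0.56 ± 0.27. The PDGF receptors Pdgfra and Pdgfrb lay at -0.89 and -0.72 from vehicle in animal 1 and at -0.03 and 0.06 in animal 2. Colec11 lay at -0.19 and 0.22.

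The cytoskeletal genes had the opposite lean. Tagln, an actin-binding protein of contractile cells, was at 7.71 in the 24 h pool, 7.72 in animal 1 and 6.09 in animal 2. Vim, the intermediate filament of mesenchymal cells, had -0.23 in animal 1 and -0.70 in animal 2. Acta2, near the floor, had -0.18 and -0.25.

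Animal 1 of 24 h was below animal 2 for 20 of the 33 members, where 43.3% of all genes were. It lay at least 0.5 below vehicle for 19 of 33 and animal 2 for 11, where 5.89% and 5.80% of all genes did. The 5 shared were those named above. Animal 1 alone was that low for 14 members (3.96% of all genes), among them Lrat, Reln, both PDGF receptors, Col1a1, Col1a2 and Col3a1. These counts are of brightest probe sets. On dimmer ones both animals were that low for Reln (-1.14 and -0.89), Col1a2 (-0.84 and -0.64) and Col5a2 (-0.78 and -0.66). Col1a1 had only animal 2 that low there (0.02 and -0.98), and Col4a1 kept animal 1 alone (-0.59 and -0.21). Animal 2 alone was that low for 6 (3.88% of all genes), which were Dcn, Tagln, Vim, Timp1, Col6a2 and Lum. Each animal is 1 array, so that this difference between animals has no test. Members had a median standard error of 0.37 at 24 h, beside 0.15 for all probe sets, so that they cross a fixed 0.5 more readily. This limit holds for the other counts at 0.5 too.

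Genes with a further probe set above the filter allowed a second reading on the same arrays. There were 13 such genes with 14 further probe sets, and 12 of the 14 had the same sign as the brightest one at 24 h. The exceptions were the 2 further probe sets of Timp3, at 0.05 and 0.01 against -0.14. Col14a1 read -0.70 on both, Col5a2 -0.73 and -0.72, Col4a1 -0.40 on both, Sparc -0.61 and -0.67, Fbn1 -0.82 and -0.69, and Lox 1.61 and 0.95. Loxl2 read -1.07 and -0.01, the second from a probe set that stayed between 4.12 and 4.22 on all arrays. Of the members at least 0.5 below vehicle in both animals, none was so on a further probe set. By animal, Col14a1 had -0.46 and -0.94 there, Sparc -0.47 and -0.86, Fbn1 -0.43 and -0.94 and Loxl2 0 and -0.02. Col6a3 had no further probe set above the filter. Those of Reln, Col1a2 and Col5a2 did have both animals that low. At 6 h the sign was shared by 7 of 14. Sparc differed most, with -0.08 on the brightest probe set and 1.07 on the other, which was at 6.48 in the 6 h pool and between 6.83 and 7.69 elsewhere.

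**Figure D3:**
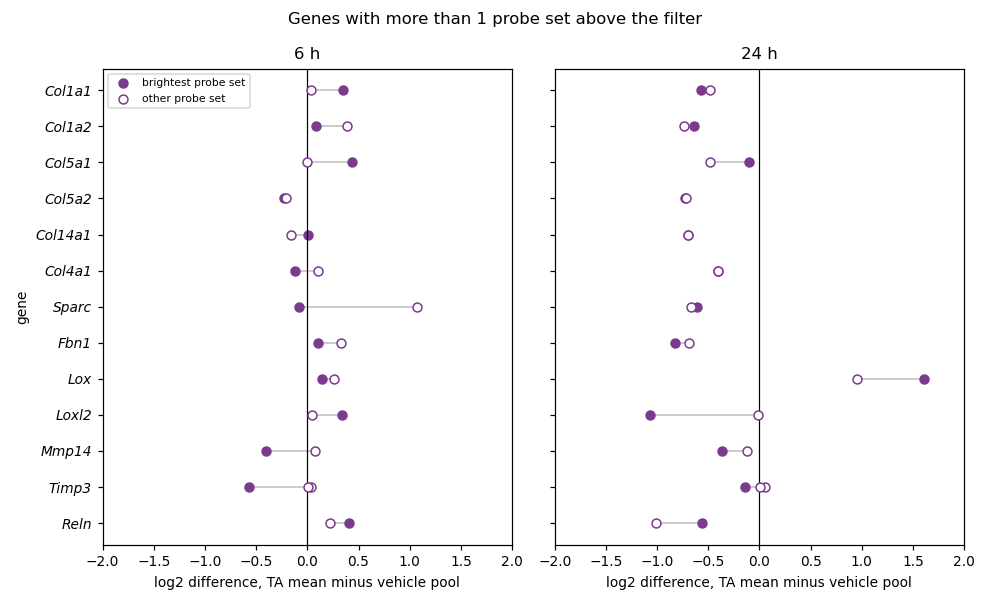
Log2 difference of the TA mean from the vehicle pool on the brightest probe set (filled) and on further probe sets (open) of 13 members, at 6 h (left) and 24 h (right). At 24 h the filled and open circles lie on the same side of 0 for 12 of 14 further probe sets, with Loxl2 open at -0.01 and with the filled circles of Col14a1 and Col4a1 hidden behind the open ones, and at 6 h Sparc spreads from -0.08 to 1.07.

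At 6 h the members had no common direction. Of the 33, 9 were higher in both animals and 9 lower in both, where 22.9% and 38.4% of all genes were. The median difference was 0.10, with 0.30 in animal 1 and -0.13 in animal 2, beside -0.03 over all genes. Limma called 0 of the 33 at 6 h (0% of all genes), with a smallest adjusted p of 0.992 for Mmp14, and 0 had an unadjusted p under 0.05, as 5.63% of all genes did. Lum alone differed by 0.5 or more in the same direction in both animals, at 1.87 and 0.56 above a vehicle value in the floor, where 1.24% of all genes were that much higher. No member was that much lower in both, where 2.06% of all genes were. Without animal 1, 24 of the 33 members lay below the 6 h pool, and the median was -0.13, beside -0.03 over all genes. The share of all genes below the pool in animal 2 was not counted, so the 24 have nothing to stand beside. Timp1 and Reln lay above vehicle in both animals, by 0.53 and 0.37 and by 0.54 and 0.27. Timp3 and Mmp14 lay below it in both, by 0.24 and 0.89 and by 0.20 and 0.59.

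For Col1a1, Col1a2, Col3a1, Col5a1, Col6a1 and Col6a2 the TA animals of 6 h lay on opposite sides of the 6 h pool. Animal 1 was higher than animal 2 for 28 of the 33 members, where 49.4% of all genes were, and by at least 0.5 for 13 (5.57% of all genes). It was the highest of the 6 arrays for 20 members (18.5% of all genes), such as Col1a1 at 6.60, Col1a2 at 11.05 and Tagln at 8.45. The summed levels of several other cell types were also highest in animal 1. The summed level of 12 markers of portal fibroblasts and mesothelium, of which 10 had a probe set and 4 passed the filter, was 7.69 (log2) in animal 1 and 6.47 to 7.06 on the other arrays. In that list Wt1, Gli1, Pi16, Fbln2, Entpd2 and the member Thy1 did not pass the filter, and Mfap4 read 6.49 in animal 1 against 5.09 in the 6 h pool and 4.54 in animal 2. The vascular smooth muscle list of 9 markers, with 7 above the filter, was at 11.55 in animal 1 and 10.82 to 11.41 elsewhere, although its median difference from the 6 h pool in animal 1 was -0.02, and Cnn1 and the member Des did not pass. Cholangiocyte markers, with 3 of 9 above the filter and Krt7, Spp1 and Cftr below it, were at 10.59 and 9.22 to 10.00. Macrophage markers were at 14.21 in animal 1 and 13.69 to 13.95 elsewhere. The 3′ to 5′ difference of GAPDH probe sets, a measure of RNA integrity, was also highest in animal 1, at 2.26 against 1.82 to 2.04. The part of tissue sampling and RNA quality in the result was not tested.

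Beside the lower members of 24 h, other cell types were read in the same way. The sinusoidal endothelial list, with all 10 of its markers on the array above the filter out of 13 listed, was at 13.02 in the 24 h pool, 12.68 in animal 1 and 13.08 in animal 2, with 13.18 in the 6 h pool and 12.95 and 13.00 in TA at 6 h. Its median difference was -0.36 in animal 1 and 0.01 in animal 2. Hepatocyte markers, all 9 on the array above the filter out of 10 listed, had a summed level of 18.39 to 18.48 on all arrays. Macrophage markers, with 11 of 14 listed and all 11 above the filter, were at 13.83 in the 24 h pool and 13.69 and 13.95 in the animals. Lymphocyte markers (4 of 11 above the filter) summed to 7.42 to 7.73 over the arrays, neutrophil markers (3 of 9) to 5.85 to 6.48 and erythroid markers (3 of 7) to 13.51 to 14.29. The members themselves summed to 14.29 in the 24 h pool and to 13.77 and 14.12. The vascular smooth muscle list was at 11.10 in the 24 h pool and at 10.82 and 11.17 in the animals, and the portal fibroblast and mesothelium list at 6.66, 6.47 and 6.55. Of the 6 arrays, animal 1 of 24 h had the lowest sum for the members and for the hepatocyte, macrophage, endothelial, smooth muscle, portal fibroblast, lymphocyte and erythroid lists. The part of cell composition in the members' levels was not tested.

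Set against the TA animals of 6 h, those of 24 h were lower for most members. This is the comparison with 2 animals on each side, which also differ in the number of doses and in the hour. In 23 of 33 members both animals of 24 h lay below both of 6 h, where 23.2% of all genes did, and in 2, Lox and Acta2, they lay above both (24% of all genes). The median difference was -0.78 over members and 0.00 over all genes. Loxl2 had -2.29 ± 0.19, at 20.4% of the 6 h level (limma, adjusted p = 0.144). Fbn1 had -1.65 ± 0.36, Col6a3 -1.46 ± 0.33, Col1a2 -1.44 ± 0.43, Col4a1 -1.16 ± 0.18 and Reln -1.16 ± 0.22. Limma called 0 of 33 members (0% of all genes), while 13 had an unadjusted p under 0.05, where 17% of all genes did.

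The vehicle pools differed in the same direction. The 24 h pool was below the 6 h pool for 27 of the 33 members, where 59.3% of all genes were, and by at least 0.5 for 12 (8.96% of all genes), with a median of -0.27. Col4a2 had -1.30 between the pools, Loxl2 -0.89, Col4a1 -0.88, Fbn1 -0.73 and Col1a2 -0.72. For Col14a1, Col6a3 and Dcn the pools were within 0.06 of each other. Fluidics runs were inferred from the hybridization times in the array settings. By these times, a first run held the 6 h pool with animal 1 of 6 h, and a second held the remaining 4 arrays. Within the second run, with animal 2 as the TA array of 6 h, the median member difference between TA at 24 h and TA at 6 h was -0.57 in place of -0.78, and the TA mean of 24 h was the lower for 28 of 33 members in place of 30. Neither count, nor the median within that run, was taken over all genes, so they have nothing to stand beside. All arrays of the 24 h comparison with vehicle were in that run.

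On brightest probe sets, both TA arrays of 24 h were the lowest 2 of all 6 for 18 of the 33 members, where 12% of all genes were. These 18 were Col1a2, Col3a1, Col5a2, Col14a1, Col4a1, Col6a1, Col6a2, Col6a3, Sparc, Dcn, Fbn1, Ecm1, Loxl2, Mmp2, Timp2, Reln, Vim and Pdgfra. The GAPDH 3′ to 5′ difference was also lowest on both TA arrays of 24 h, at 1.91 and 1.82 against 2.04 in their pool and 1.92 to 2.26 at 6 h, and its part in this pattern was not tested. Lox was the one member with both as the highest 2, as were 10.3% of all genes. The effect of TA at 24 h minus that at 6 h had a median of -0.53 over members, and limma called 0 of 33 members (0% of all genes), with 3 at an unadjusted p under 0.05 (Col14a1, Sparc and Loxl2), where 4.61% of all genes were. Over probe sets 1 was called (0.00537%), none of them a member's. In 8 members both animals were above vehicle at 6 h and below it at 24 h, where 6.74% of all genes were.

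**Figure D4:**
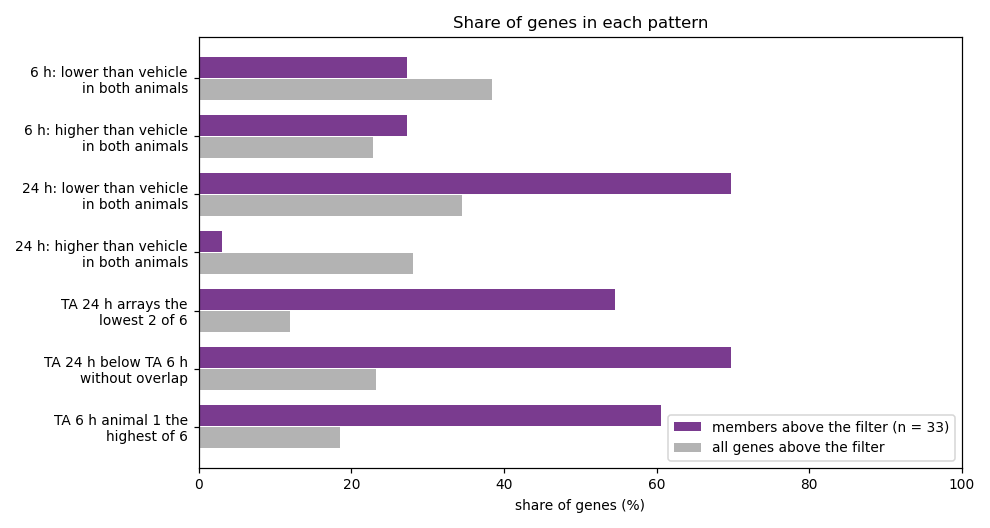
Share of genes (%) in each pattern, for the 33 members above the filter (purple) and for all 10449 genes above it (grey). The members lie above the grey bar for lower in both animals at 24 h, with 69.7% against 34.5%, and for both TA arrays of 24 h as the lowest 2 of 6, with 54.5% against 12%, but not for lower in both animals at 6 h, with 27.3% against 38.4%.

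Other genes of the same pathways were read from lists chosen by name, likewise with earlier results known. Their counts stand beside the 34.5% of all genes lower in both animals and the 28.1% higher in both. Of 25 further matrix proteins above the filter, 14 lay below vehicle in both animals at 24 h and 3 above it in both, with a median of -0.22 and 0 called by limma. Lamc1, a laminin chain, was at 7.52 in the 24 h pool and 6.95 and 6.90 in the animals (-0.59 ± 0.09), Nid1, which ties laminin to type IV collagen, had -0.62 ± 0.24, Fbln5, an elastic fibre protein, -0.71 ± 0.27 and the mineralisation inhibitor Mgp -1.03 ± 0.44. Of 12 genes of collagen maturation 6 were lower in both and 3 higher, with a median of -0.09. Pcolce, which enhances cleavage of the procollagen C-terminus, had -0.93 ± 0.24, Plod2 -0.33 ± 0.41, P3h1 -0.32 ± 0.19 and Tgm2 -0.29 ± 0.14. Of 12 other proteases and inhibitors 7 were lower in both and 1 higher, with a median of -0.03. The membrane inhibitor Reck had -0.79 ± 0.18 and the plasminogen activator Plat -0.66 ± 0.21, while Mmp19 had 0.20 ± 0.14 and Mmp15 -0.14 ± 0.09.

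Of 28 genes of TGF-beta and PDGF signalling, 14 were lower in both animals at 24 h and 5 higher in both, with a median of -0.04. Ccn2, a matricellular target of TGF-beta also known as connective tissue growth factor, was at 5.06 in the 24 h pool and at 4.26 and 3.91 in the animals (-0.98 ± 0.20). Ltbp1, which holds latent TGF-beta in the matrix, had -0.53 ± 0.11, and the pseudoreceptor Bambi -0.62 ± 0.45. Id1, a target of BMP signals, was at 4.73 in the 24 h pool and at 5.35 and 5.43 in the animals, and lay below vehicle at 6 h, with 4.72 and 5.39 against 5.97. Of 21 other stellate cell genes 9 were lower in both and 3 higher, with a median of -0.11. Among them were Mgp at -1.03 ± 0.44, which is also counted with the matrix proteins, Cxcl12 at -0.27 ± 0.22, Angptl6 at -0.28 ± 0.36 and Hand2 at 0.30 ± 0.38. Limma called none of the genes in these lists at either time, with 0 of 28 signalling genes and 0 of 21 stellate cell genes called at 24 h.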

How the data were processed

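Liver RNA was measured on 6 Affymetrix arrays. The authors deposited log2 values for 31099 probe sets. RMA and GCRMA, with affy 1.5.8 under R 2.0.1, are named per the submitters' processing notes, and the sources used here do not say which of both made these values. Low values are compressed in a floor near the filter, and arrays give no counting depth, so that their number limits the precision. Members and lists were chosen with earlier results of these data known.

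The 57 control probe sets were left out, and 18625 probe sets with a mean above the 40th percentile (2.82) were kept. Genes were named from the platform annotation where a probe set had 1 symbol (20826 probe sets; 436 had several and 9780 none). A model of 4 group means was run in limma 3.58.1 under R 4.3.3 (lmFit, eBayes; 2 residual and 1.60 prior degrees of freedom), two-sided, with Benjamini-Hochberg adjustment and calls under 0.05. Standard errors assume that a vehicle pool varies like a treated animal. The procedure was tested on simulated arrays with differences added to TA at 24 h. It called 0 of 50 probe sets with an added log2 difference of 1, 30 of 50 with 2, 37 of 50 with 3 and 42 of 50 with 4. There were 11 false calls. Simulated spreads were drawn from the fit to all probe sets, whereas members had larger standard errors, so that members could be recovered less often. Differences of the size seen in most members could thus go uncalled. Values on all arrays are given for members at least 0.5 from vehicle in the same direction in both animals and for 11 fixed genes; Tagln, Colec11, Loxl1 and others given by animal were chosen after their values were seen. Up to 4 genes per further list were named, those with the largest difference at 24 h in the same direction in both animals. Alternatives covered the filter, scaling, probe set summary, prior, control, fluidics run, replicate block and leaving out animals.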

Additional observations from a re-analysis of the deposited data

Results flagged for a closer look

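For 8 of the 33 members above the filter, both TA animals lay above vehicle at 6 h and both below it at 24 h, so that the direction differed between the times. Over all genes 6.74% did so. The effect at 24 h minus that at 6 h (log2) was -1.55 for Dcn, -1.41 for Col6a3, -1.41 for Loxl2, -0.97 for Reln, -0.75 for Vim, -0.74 for Timp1, -0.54 for Mmp2 and -0.35 for Acta2. Limma's test of this difference called none of the 8, each with an adjusted p of 1. Dcn rested at 6 h on animal 1, since animal 2 was at 0.00 from the vehicle pool. Acta2 was near the floor on all arrays.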

How the results depend on the processing

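The median member difference at 24 h was negative under all 14 alternatives, but not all of these could move it. The intensity trend, the run as a block and leaving out either TA animal of 6 h cannot change this value. It stayed at -0.40 there, which says nothing of its stability. Among the others, the median was -0.36 with no filter and -0.38 with quantile normalization. It was -0.59 when both pools were merged and -0.76 when the pools were exchanged between the times. Leaving out an animal gave -0.60 to -0.26, and at 6 h -0.13 to 0.30. Members lower in both animals at 24 h were 20 to 28 with all animals, and 23 to 30 when an animal was left out, a count that leaving out an animal cannot lower. At 6 h they were 5 in place of 9 with quantile normalization, 3 against the vehicle pool of the other time, 3 with both pools as 1 control group, and, likewise bound to be no lower, 9 to 24 when an animal was left out, 24 without animal 1. Members with both TA arrays of 24 h lowest were 17 to 26 and those below TA at 6 h 22 to 30, counts with alternatives chosen after seeing the data and which leaving out an animal can only raise. The median difference between TA at 24 h and TA at 6 h, -0.78, was -0.57 within the second fluidics run, an alternative likewise added after seeing the data. Limma called 0 members under all settings run. Of probe sets without a member, 1 was called at 24 h and 1 for the difference of effects. At 24 h this became 2 with an intensity trend, and 0 with the stricter filter, the mean of probe sets, either change of control and the run as a block, and 0 to 2 without an animal. The difference gave 0 with the stricter filter, the mean of probe sets, both pools as 1 control group, the run as a block and without any animal. At 6 h the other pool gave 1. Replicate numbers mark different rats, and deviations of same-numbered animals correlated at -0.08. With the replicate block 0 probe sets were called at 24 h and 0 for the difference, and the median at 24 h was -0.39.

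Directions turned at 6 h when an animal was left out for Col1a1 (-0.76 to 1.47), Col1a2 (-0.46 to 0.62), Col3a1 (-0.09 to 0.38), Col14a1 (-0.07 to 0.09), Fbn1 (-0.33 to 0.52), Lox (-0.35 to 0.63) and Lrat (-0.13 to 0.16), and at 24 h for Lum (-0.83 to 0.98) and Lrat (-0.66 to 0.11). At 6 h Col14a1 was at -0.08 and Sparc at 0.50 with the mean of probe sets, Sparc at 0.01 with quantile normalization and Lrat at -0.10 with the replicate block. Acta2 was at -0.30 at 6 h and 0.22 at 24 h against the other pool, and at -0.09 at 6 h with both pools as 1 group. Apart from leaving out arrays, the cause was not tested.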
